A study of Mus musculus with 16 samples.

Results

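The major histocompatibility complex (MHC) class II genes described here are H2-Aa, H2-Ab1, H2-Eb1, Cd74, H2-DMa, H2-DMb1 and Ciita, 7 of the 32285 genes in the deposited matrices, and were chosen by name. They were followed in single-cell RNA-seq of viable CD45+ leukocytes sorted from mouse kidney allografts and spleens. In the accepting model a kidney of DBA/2J mice was placed in C57BL/6J (B6) recipients and accepted without immunosuppressive drugs, and graft and recipient spleen were sampled at 1, 3 and 24 weeks. In the rejecting model a B6 kidney was placed in DBA/2J recipients and sampled at 1 week, and naive spleen had no transplant. The labels give genotype WT and strain C57BL/6J for every sample, the rejecting ones included. The genes were read by cell class in all sorted cells of rejecting kidney (2 libraries, 11948 cells) and naive spleen (5 libraries, 47060 cells), where antigen-presenting cells are present. They were then read in the 9 matrices of cells that the study called CD8+ T cells, 32 libraries in all: 3, 5 and 3 of accepted kidney and 3, 5 and 3 of recipient spleen at 1, 3 and 24 weeks, 2 of rejecting kidney, 3 of rejecting spleen and 5 of naive spleen. A library is the tag on a cell's barcode. The study's methods treat each mouse as a separate sample, whereas the labels tie no library to an animal, and p-values measure the spread between libraries.

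MHC class II molecules display peptides from endocytosed proteins to CD4+ T cells, and professional antigen-presenting cells (B cells, dendritic cells and activated macrophages) make them constitutively or under interferon-γ. H2-Aa and H2-Ab1 encode the α and β chains of the I-A molecule and H2-Eb1 the β chain of I-E. Cd74 encodes the invariant chain, which occupies the groove and carries the molecule to endosomes. H2-DMa and H2-DMb1 encode subunits of H2-DM, which exchanges the remnant of the invariant chain for peptide, and Ciita encodes the transactivator that switches the whole set on. Mouse T cells, unlike activated human ones, are known for making little or no class II. Class II RNA in mouse CD8+ T cells is therefore read here against the genes of the cells that do make it.

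Ciita binds no DNA itself and acts through factors that sit on short upstream elements, the X and Y boxes, of genes that it switches on. Of the 7 genes, 4 (H2-Aa, H2-Eb1, H2-DMa and H2-DMb1) had promoter windows in the RefSeq table of GRCm38.p6, each from 250 bases before to 50 after a transcription start. H2-Ab1, Cd74 and Ciita had none. The letters GNAACT and GATTGG and the spacing between them were chosen after looking at these windows. They were searched on both strands. The stretches that hold both, the first 25 or 26 bases ahead of the other, are shown 5′ to 3′ on the strand of the gene, with both motifs in capitals, to let the shared arrangement be seen.
H2-Aa, chr17:34287857-34287914, minus strand: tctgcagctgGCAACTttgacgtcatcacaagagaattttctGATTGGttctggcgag
H2-Eb1, chr17:34305766-34305822, plus strand: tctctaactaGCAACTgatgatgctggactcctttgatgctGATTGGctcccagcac
H2-DMb1, chr17:34153087-34153144, plus strand: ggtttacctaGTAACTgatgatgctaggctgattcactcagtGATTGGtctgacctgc
The GATTGG lay 49, 60 and 62 bases before the start of H2-Aa, H2-Eb1 and H2-DMb1. GATTGG was in 16.1% and GNAACT in 42.8% of all 32851 windows, whereas the pair at this spacing was in 14 windows (0.0426%), among them those of H2-Aa, H2-Eb1, H2-DMb1 and the related H2-Eb2. Since letters and spacing were set on member windows, the hits of H2-Aa, H2-Eb1 and H2-DMb1 were fixed in advance. Neither of the H2-DMa windows held the pair. A match of letters is a description of the sequence and not evidence of binding.

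On GRCm38 the coordinates of 6 of the genes are as follows: H2-DMa (chr17:34119541-34139101), H2-DMb1 (chr17:34153072-34160230), H2-Ab1 (chr17:34257689-34269419) and H2-Eb1 (chr17:34305867-34316674) on the plus strand, H2-Aa (chr17:34282744-34287823) on the minus strand, and Ciita on the plus strand of chromosome 16 (chr16:10480059-10528418). H2-DMa overlaps Brd2, Gm20493 and CR974462.4 on the opposite strand and CR974462.3 on its own strand, and whether the counting used strand is not given in the sources used here, so its counts may be shared with them. The same holds for Ciita with Dexi and H2-Eb1 with Gm20513, both on the opposite strand, and for Cd74 with a microRNA gene on its own strand. H2-DMb1 and H2-DMb2 are near-identical copies whose reads could have been split between them. B6 and DBA/2J carry different class II alleles, and the mm10 reference is a B6 genome, so values of rejecting grafts, whose recipients were DBA/2J, also carry the match of their reads to the reference. Accepted grafts came from DBA/2J donors, so the same holds for any donor RNA in their libraries. H2-Ea was not analysed here.

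The libraries held from 153266 to 25960721 UMIs (unique molecular identifiers, 1 for each captured transcript) in the CD8+ matrices, with rejecting spleen the shallowest (726 cells in all, 56 in its second library), and 13437087 to 37016197 UMIs in the all-cell matrices. Values are given as CPM, the UMIs of a gene per 1000000 UMIs summed over the cells named. Of the cells called CD8+ T cells, 10.3% to 29.3% by matrix held a UMI of a B cell, macrophage or dendritic cell gene (Cd79a, Cd79b, Ms4a1, C1qa, C1qb, Lyz2, Flt3 or Siglech). Kidney RNA ran opposite to the tissue labels in the libraries labelled 24-week. RNA of 12 genes of the kidney parenchyma summed to 15.3 to 25.3 CPM in the libraries labelled 24-week spleen and to 0.161 to 0.390 CPM in those labelled 24-week kidney, against 16.1 to 26.2 CPM in kidney and at most 0.602 CPM in spleen of accepting recipients at 1 and 3 weeks. Much of these sums was Spp1, which immune cells also make. Without Spp1 the other 11 genes summed to 4.48 to 6.40 CPM in libraries labelled 24-week spleen and 0 to 0.361 CPM in those labelled 24-week kidney, against 1.20 to 12.5 CPM in kidney and at most 0.481 CPM in spleen at the earlier times. A UMI of Cd8a or Cd8b1 was held by 46.2% to 49.2% of cells labelled 24-week kidney and 93.4% to 95.3% of those labelled 24-week spleen, against 83.5% to 97.0% in kidney and 41.9% to 51.8% in spleen at the earlier times. A high share was not particular to kidney, since it was 96.1% over naive spleen and 100% in rejecting spleen. The labels were kept as given, and each statement on 24 weeks is made of libraries so labelled. Comparisons of 1 and 3 weeks do not use them.

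Cell classes were set by raw UMIs of 6 genes that were not among the members. A cell joined the class of Cd79a (the B cell receptor's signalling chain), C1qa (a complement subunit of macrophages), Ly6c2 (monocytes), Flt3 (a cytokine receptor of dendritic cells), Siglech (plasmacytoid dendritic cells) or Cd3e (T cells) when it held at least 2 UMIs of that gene and none of the other 5, save that Siglech cells could hold Flt3 or Ly6c2. In naive spleen 33271 cells (70.7%) and in rejecting kidney 5575 cells (46.7%) were classed. The other markers matched most classes. In naive spleen Cd79b was held by 96.9% of Cd79a cells, C1qb by 87.2% of C1qa cells, Bst2 by 98.3% of Siglech cells and Cd3d by 93.3% of Cd3e cells. The Ly6c2 class of naive spleen did not match its gene: Ccr2 and Lyz2, genes of monocytes, were in 34.2% and 31.8% of its cells, Cd3d of T cells in 38.4% and Klre1 of natural killer cells in 32.6%, and 243 of its cells were also in the CD8+ matrix. In rejecting kidney the same class held Lyz2 in 98.1% and Ccr2 in 76.7% of cells and Cd3d in 1.72%. The Flt3 classes were small, with 56 cells in naive spleen and 18 in rejecting kidney, and Itgax and Clec9a, genes of conventional dendritic cells, were in 57.1% and 26.8% of the former. Ighm, an immunoglobulin gene, was held by 69.6% of the Flt3 cells and 58.1% of the Cd3e cells of naive spleen, and its part in the values below was not tested.

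In naive spleen Cd74 and the chain genes were highest in the Flt3 class, lower in the Cd79a, Siglech and C1qa classes, and all 7 genes were lowest in the Cd3e class. Cd74 was the most abundant of the 7 in every class of naive spleen. In the Cd79a class Cd74 measured 6947, 7624, 7356, 7862 and 7851 CPM in libraries 1 to 5. In the Flt3 class it measured 9729.7, 12779.7, 12666 and 12619 CPM in libraries 1, 3, 4 and 5 (library 2 held under 10 such cells). These groups did not overlap, and the Flt3 libraries were the higher. In the Siglech class Cd74 measured 3046, 6653, 5030.4, 6154 and 6013 CPM, below every Cd79a library. The C1qa class spread widely, at 2109, 3552, 3869, 2979 and 7734 CPM, so that library 5 lay among the Cd79a libraries and the other 4 below them. The Cd3e class held 92.9, 56.8, 60.2, 84.1 and 84.3 CPM, far below all of these.

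**Figure D1:**
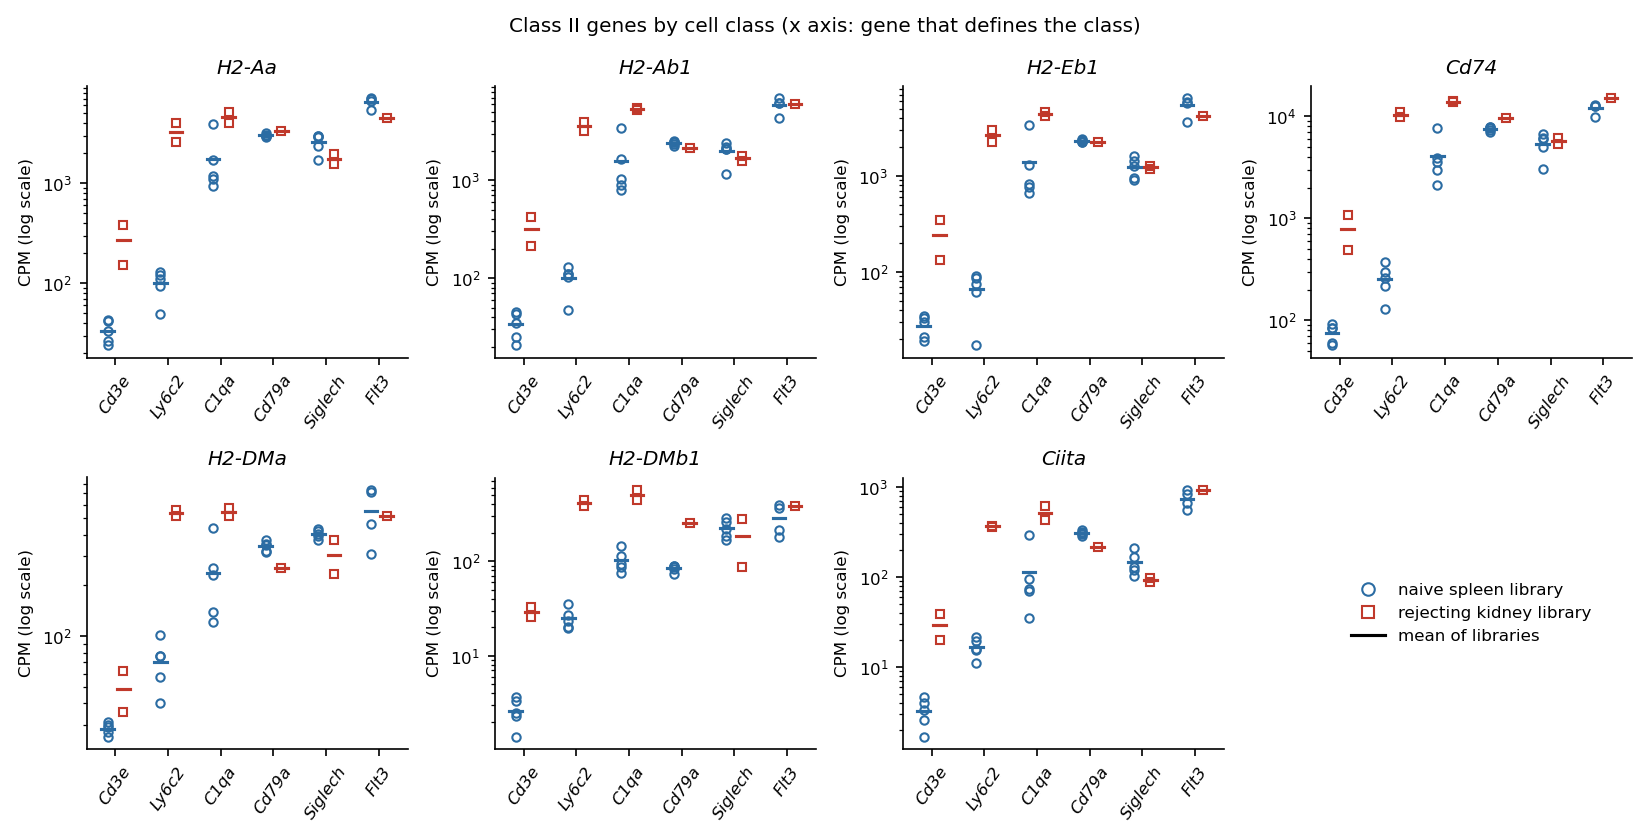
Level of each of the 7 class II genes (CPM, log axis) by cell class, with a point for each library (blue naive spleen, red rejecting kidney) and a bar at the mean. In naive spleen the Flt3, Cd79a and Siglech classes stood 1 or more orders of magnitude above the Cd3e class, and in rejecting kidney the Ly6c2 class stood with the C1qa class.

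The chain genes were highest in the Flt3 class too. H2-Aa measured 2973, 2903, 3171, 3017 and 2969 CPM in the Cd79a class, 5428 to 7065 CPM in the Flt3 class, 1704 to 2994 CPM in the Siglech class, 935 to 3921 CPM in the C1qa class and 23.8 to 43.0 CPM in the Cd3e class. H2-Ab1 ranged over 2232 to 2532 CPM in the Cd79a class and 4302 to 6880 CPM in the Flt3 class. H2-Eb1 ranged over 2268 to 2424 CPM in the Cd79a class and 3654 to 6420 CPM in the Flt3 class. Siglech and Cd79a libraries overlapped for H2-Aa and H2-Ab1. For H2-Eb1 they did not, with 899 to 1616 CPM in the Siglech class, and per H2-Aa UMI the Siglech class held 0.405 to 0.555 of H2-Eb1 against 0.764 to 0.785 in the Cd79a class.

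The regulator and the peptide exchange genes were rarer. Ciita measured 285, 309, 299, 316 and 330 CPM in the Cd79a class, 663, 834, 551 and 926 CPM in libraries 1, 3, 4 and 5 of the Flt3 class, 103 to 213 CPM in the Siglech class and 1.66 to 4.61 CPM in the Cd3e class. In the C1qa class it measured 72.7, 34.7, 95.7, 70.6 and 296 CPM. The Ciita levels of the Flt3, Cd79a and Siglech classes did not overlap. H2-DMa measured 319, 313, 351, 371 and 346 CPM in the Cd79a class, 308 to 735 CPM in the Flt3 class, 370 to 429 CPM in the Siglech class and 121 to 436 CPM in the C1qa class, so these classes overlapped with their neighbours. The Cd3e class kept 25.3, 27.2, 29.7, 31.1 and 29.0 CPM of H2-DMa, the narrowest gap to the antigen-presenting classes of the 7 genes. H2-DMb1 was lower in the Cd79a class (74.3 to 89.3 CPM) than in the Flt3 (181 to 398 CPM) and Siglech (167 to 290 CPM) classes, with no overlap.

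All 7 genes were higher in each of the 5 other classes than in the Cd3e class of naive spleen, by edgeR's quasi-likelihood test on UMIs summed per class and library, with the library as a covariate and Benjamini-Hochberg adjustment over 8318 genes. For the Cd79a class 33.3% of all genes tested were higher and the median gene differed by 0.12 on the log2 scale, whereas the members differed by 3.58 ± 0.16 (SE) for H2-DMa to 6.64 ± 0.28 for Cd74 (99.5-fold, adjusted p = 6.96e-21). For the Flt3 class (19.0% of all genes higher, median 0.10) the members ranged from 4.26 ± 0.23 for H2-DMa to 7.77 ± 0.27 for Ciita. For the Siglech class (27.4% higher, median 0.24) they ranged from 3.82 ± 0.20 for H2-DMa to 6.43 ± 0.25 for H2-DMb1. For the C1qa class (27.1% higher, median 0.12) they ranged from 2.90 ± 0.24 for H2-DMa to 5.68 ± 0.27 for Cd74. For the mixed Ly6c2 class (28.3% higher, median 0.07) they ranged from 1.20 ± 0.33 for H2-Eb1 to 3.34 ± 0.26 for H2-DMb1. There Cd74 measured 262, 299.7, 129, 378 and 218 CPM, a level between those of the Cd3e and C1qa classes. H2-DMa had the smallest difference of the 7 in 4 of these 5 comparisons.

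The other genes of the class II pathway, 13 by name, were counted beside the members. Against the Cd3e class 12 of them were tested. In the Cd79a class 10 were higher and 2 were lower, the latter Ctsl (a cathepsin, log2 difference -0.84) and Rfxap (a subunit of the X box factor, -0.45). In the C1qa class 10 were higher and 1 lower, in the Flt3 and Siglech classes 8 higher and none lower, and in the Ly6c2 class 6 higher and 1 lower. H2-Oa and H2-Ob encode H2-DO, which restrains H2-DM, and both were abundant in the Cd79a class, at 180 to 204 CPM for H2-Oa and 426 to 488 CPM for H2-Ob.

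The classes that carried class II RNA were also compared with each other. In the C1qa class 6 of 7 members were lower than in the Cd79a class (16.7% of all genes were), from -0.69 ± 0.20 for H2-DMa to -1.62 ± 0.25 for Ciita (adjusted p = 1.5e-06), with Cd74 at -0.96 ± 0.22, while H2-DMb1 differed by 0.26 ± 0.21 (adjusted p = 0.358, edgeR). Without the first library only 3 of the 6 passed, and the share of all genes in that fit is not given here. Of the pathway genes 3 were higher in the C1qa class, Ctsl (4.66), Lgmn (3.43) and Ctss (1.20), all proteases of the endosome. The 4 that were lower were H2-DMb2 (-3.60), H2-Ob (-3.55), H2-Eb2 (-2.17) and H2-Oa (-2.03). In the Flt3 class all 7 members were higher than in the Cd79a class (15.3% of all genes were), from 0.67 ± 0.23 for Cd74 (adjusted p = 0.0302, not passed with TMM factors or DESeq2) to 1.80 ± 0.20 for H2-DMb1. H2-Ob (-1.40) and H2-DMb2 (-0.98) were lower there, and Ifi30 (a thiol reductase of the endosome, 1.96) and Cd83 (a surface protein of mature dendritic cells, 0.85) were higher. When a second marker was needed to join a class, 2 of the 7 passed in this comparison. In the Siglech class 5 members were lower than in the Flt3 class (6.42% of all genes were), led by Ciita (-2.32 ± 0.25) and H2-Eb1 (-2.13 ± 0.30), whereas H2-DMa (-0.44 ± 0.22, adjusted p = 0.197) and H2-DMb1 (-0.42 ± 0.22, adjusted p = 0.221) did not pass. Of the pathway genes 6 were lower and 1 was higher. With a second marker needed, the Flt3 class again rested on library 4 only, and no count is given.

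In the rejecting kidney the C1qa and Ly6c2 classes both carried the full set at levels near or above those of B cells in naive spleen. In the C1qa class Cd74 measured 14101 and 13746 CPM, H2-Aa 5166 and 4041 CPM, H2-Ab1 5424 and 5221 CPM, H2-Eb1 4602 and 4207 CPM, and Ciita 426 and 615 CPM in its libraries, tagged 2 and 3. In the Ly6c2 class Cd74 measured 10954 and 9815 CPM, H2-Aa 4006 and 2575 CPM, and Ciita 362 and 371 CPM. Both libraries of the C1qa class lay above both of the Ly6c2 class for these genes. H2-DMa (515 and 576 CPM against 562 and 516 CPM) and H2-DMb1 (440.3 and 570.2 CPM against 442 and 389 CPM) overlapped between these classes. The Siglech class held 5344 and 6142 CPM of Cd74, 1975 and 1555 CPM of H2-Aa, and 87.1 and 97.2 CPM of Ciita. With 10 or more cells in 1 library only, the Flt3 class (13 cells) held 14980.5 CPM of Cd74 and 931 CPM of Ciita, and the Cd79a class (17 cells) 9671 CPM of Cd74 and 218 CPM of Ciita, values with no replicate.

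The Cd3e class of the rejecting kidney was not free of class II RNA. It held 1070.1 and 490.2 CPM of Cd74, 384 and 152 CPM of H2-Aa, and 61.9 and 35.7 CPM of H2-DMa. For all 7 members both libraries lay above every Cd3e library of naive spleen, and the share of all genes that did so is not given here. Tissue, recipient strain, transplantation and the match of reads to the reference differ together between these libraries and cannot be told apart. Lyz2, a gene of macrophages and monocytes, was held by 24.8% of the Cd3e cells of rejecting kidney. Its part in these values was not tested. Against this class all 7 members were higher in the C1qa class (23.1% of 10730 genes were, median -0.14), from 3.50 ± 0.23 for H2-DMa to 4.29 ± 0.24 for H2-Eb1, and all 7 were higher in the Ly6c2 class (22.7% of genes, median -0.26), from 3.48 ± 0.23 for H2-DMa to 3.82 ± 0.24 for H2-DMb1 (edgeR). Of 12 pathway genes tested, 8 were higher and 1 lower in the C1qa class, and 7 higher and 1 lower in the Ly6c2 class. Between the C1qa and Ly6c2 classes 2 members passed (6.90% of genes were higher in the C1qa class, median 0.13), H2-Eb1 at 0.77 ± 0.21 (adjusted p = 0.00593) and H2-Ab1 at 0.58 ± 0.20 (adjusted p = 0.0438). With TMM factors or DESeq2 in place of plain totals neither passed, and at an unadjusted p under 0.05 the counts were 1 (H2-Eb1) and 0. The 5 other members differed by 0.02 to 0.52.

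Between rejecting kidney and naive spleen, the Ly6c2 and C1qa classes were compared. In the Ly6c2 class all 7 members were higher in the rejecting kidney (28.6% of 8900 genes were, median 0.12), from 2.94 ± 0.27 for H2-DMa to 5.36 ± 0.46 for H2-Eb1, with Cd74 at 5.35 ± 0.34 (adjusted p = 3.55e-06, edgeR, higher in both libraries than in all 5). The naive class was the mixed one described above, with T and natural killer cell genes in many of its cells, so the comparison is not one of monocytes with monocytes. Of 9 pathway genes tested 7 were higher, Cd83 by 6.05, and H2-Ob was lower at -2.69. In the C1qa class all 7 were also higher (29.2% of 3208 genes were, median 0.24), from 1.30 ± 0.35 for H2-DMa to 2.34 ± 0.30 for H2-DMb1, with Cd74 at 1.79 ± 0.37 and Ciita at 2.32 ± 0.41. H2-Aa, at 1.40 ± 0.41 (adjusted p = 0.0097), did not pass with DESeq2 (adjusted p = 0.062). Of 8 pathway genes 4 were higher, Ctss (3.20), H2-DMb2 (2.13), Ifi30 (1.59) and March1 (a ligase that removes class II from the surface, 1.42), and H2-Oa was lower (-2.84). Tissue, recipient strain, transplantation and the match of reads to the reference cannot be told apart in these comparisons.

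Per cell, the sum of H2-Aa, H2-Ab1, H2-Eb1 and Cd74 had a median of 45 UMIs in the Cd79a class of naive spleen, 203 in the Flt3 class, 57.5 in the Siglech class and 5 in the C1qa class. These are raw UMIs of cells that differed in depth, so they do not rank the classes as CPM does. The median depth was 2708, 6345, 5702 and 2548 UMIs per cell in these classes, in the same order. The naive C1qa class was uneven, with a lowest decile of 1 and a highest of 49 UMIs. In rejecting kidney the C1qa class had a median of 83 UMIs (deciles 30 and 147) and the Ly6c2 class 45. The Cd3e class had a median of 0 in naive spleen, where 74.2% of cells held none of the 4 genes, and of 1 in rejecting kidney, where 33.0% held none. With every cell thinned to 1000 UMIs, a Cd74 UMI was seen in 99.6% of naive Cd79a cells (95% Clopper-Pearson interval 99.5 to 99.7), 65.9% of naive C1qa cells (58.4 to 72.9, with 50 shallower cells left out) and 4.24% of naive Cd3e cells (3.66 to 4.90), the last being the level in cells that should lack it. These intervals cover counting error only. Without thinning the last share was 12.8%. In rejecting kidney the shares were 99.8% of C1qa cells, 97.0% of Ly6c2 cells and 27.0% of Cd3e cells (24.9 to 29.1).

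In the cells called CD8+ T cells, Cd74 and the chain genes were lowest in naive spleen and highest in the spleen of accepting recipients at 1 week. All 4681 cells of the naive CD8+ matrix and all 2184 of the rejecting kidney one were found again among all sorted cells with equal counts of the members, so these matrices are subsets and not separate libraries. Cd74 measured 31.7, 14.8, 31.6, 40.4 and 27.2 CPM in naive spleen. At 1 week it measured 1123, 1324 and 627 CPM in spleen and 70.2, 48.0 and 75.5 CPM in accepted kidney. At 3 weeks it measured 135, 287, 381, 258 and 311 CPM in spleen and 60.0, 179.7, 131, 119 and 129 CPM in kidney. Kidney and spleen were apart at 1 week and overlapped at 3 weeks, and the lowest spleen library at 1 week lay above every spleen library at 3 weeks. In the libraries labelled 24-week, Cd74 measured 309, 359.6 and 159 CPM in kidney and 80.7, 168 and 72.1 CPM in spleen, higher on average in kidney than in spleen, with overlap. The rejecting model gave 328 and 153 CPM in kidney and 537, 339 and 488 CPM in spleen. A sum over a library cannot tell more cells with the RNA from more RNA per cell.

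**Figure D2:**
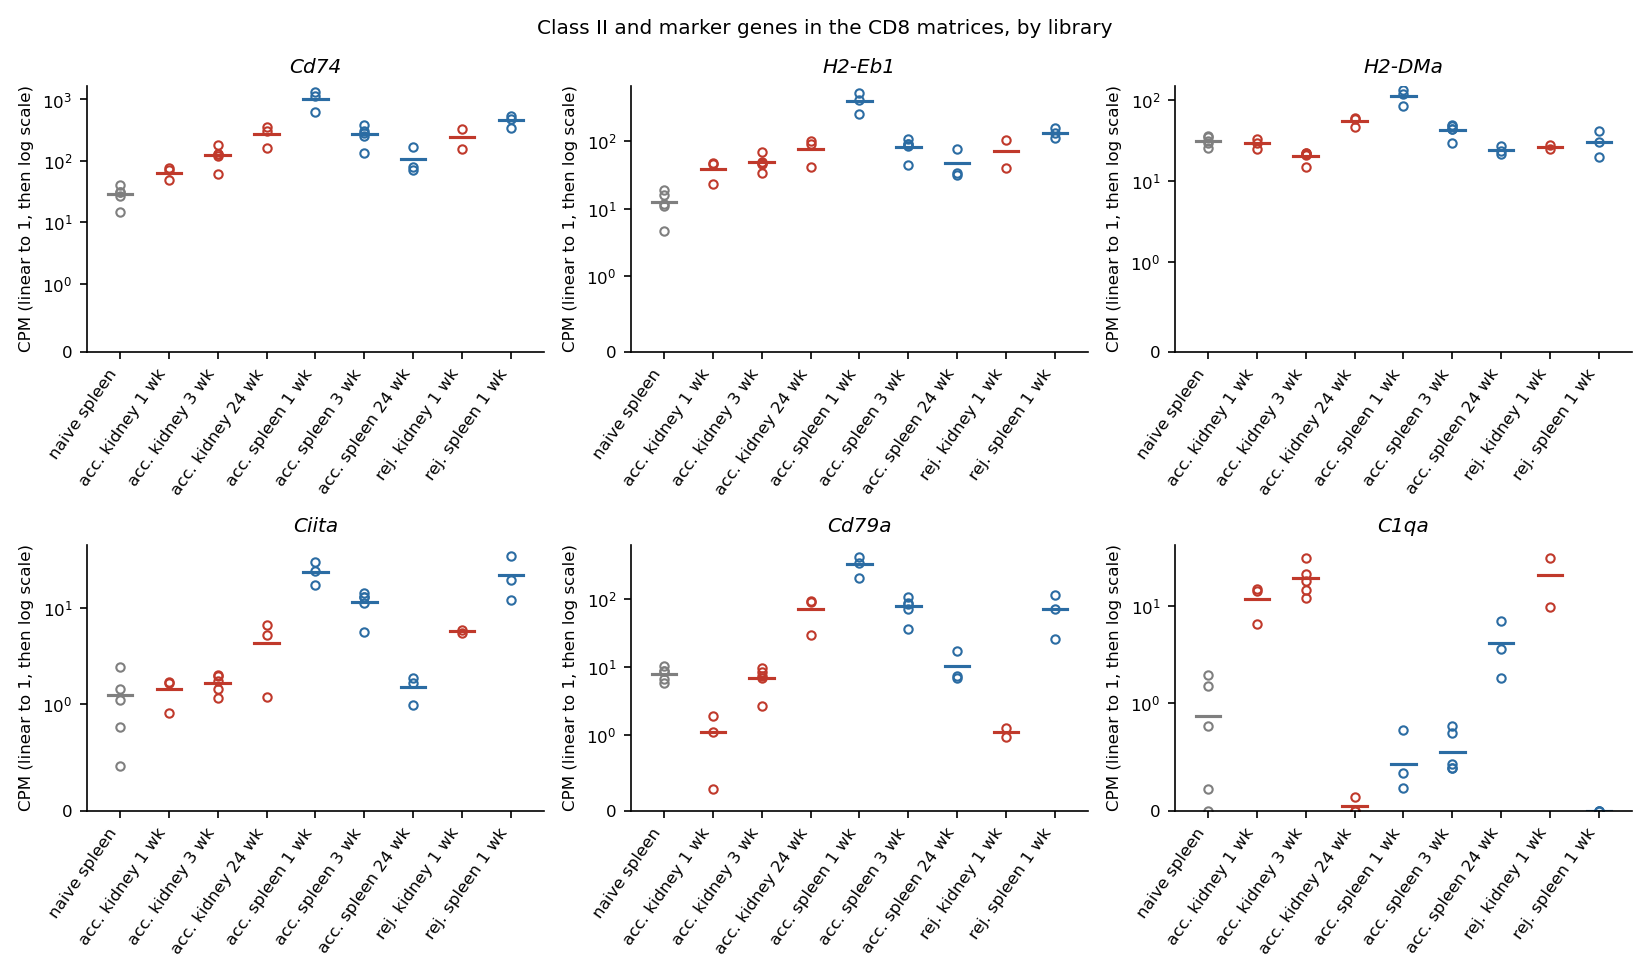
CPM of Cd74, H2-Eb1, H2-DMa and Ciita and of the marker genes Cd79a (B cells) and C1qa (macrophages) in the CD8+ matrices, a point for each library and a bar at the mean (axis linear to 1 CPM, then log). Cd74 and Cd79a were highest in accepted spleen at 1 week, where C1qa stayed below 1 CPM, whereas accepted kidney at 1 and 3 weeks held 6.52 to 31.0 CPM of C1qa.

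H2-Aa measured 519, 637 and 325 CPM in spleen and 37.4, 25.5 and 48.0 CPM in kidney at 1 week, against 17.1, 6.40, 14.6, 20.2 and 13.3 CPM in naive spleen. At 3 weeks it measured 59.4, 121, 167, 129.8 and 152 CPM in spleen and 27.5, 81.1, 58.6, 50.4 and 63.1 CPM in kidney. All of these kidney and spleen libraries lay above the naive ones. Ciita measured 24.4, 30.1 and 17.3 CPM in spleen and 1.72, 0.921 and 1.66 CPM in kidney at 1 week, and 0.422 to 2.42 CPM in naive spleen. The kidney libraries thus lay within the naive range for Ciita and above it for H2-Aa. At 3 weeks Ciita measured 5.58 to 14.2 CPM in spleen and 1.16 to 2.00 CPM in kidney, and in the rejecting model 5.89 and 5.52 CPM in kidney and 35.2, 19.6 and 12.1 CPM in spleen. The median level of the B cell class of naive spleen was 309 CPM. H2-DMb1 stayed at or under 10.1 CPM in every CD8+ library.

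The class II UMIs were unevenly spread over the cells. In accepted spleen at 1 week 16.9% of cells held 10 or more UMIs of H2-Aa, H2-Ab1, H2-Eb1 and Cd74, and these cells held 95.2% of all such UMIs. The matching values were 4.45% and 74.7% in spleen at 3 weeks, 8.40% and 84.0% in rejecting spleen, and 2.80% and 85.1% in libraries labelled 24-week kidney. In the other matrices few cells were rich in the RNA: 0.316% of cells held 11.8% of the UMIs in kidney at 1 week, 0.108% held 2.16% in kidney at 3 weeks, 0.229% held 6.02% in rejecting kidney, 0.154% held 4.69% in libraries labelled 24-week spleen and 0.171% held 11.7% in naive spleen. Of cells with 10 or more such UMIs in spleen at 1 week, 42.4% also held a CD8 UMI, near the 44.2% of all cells of that matrix. Whether 2 cells shared a droplet was not tested.

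**Figure D3:**
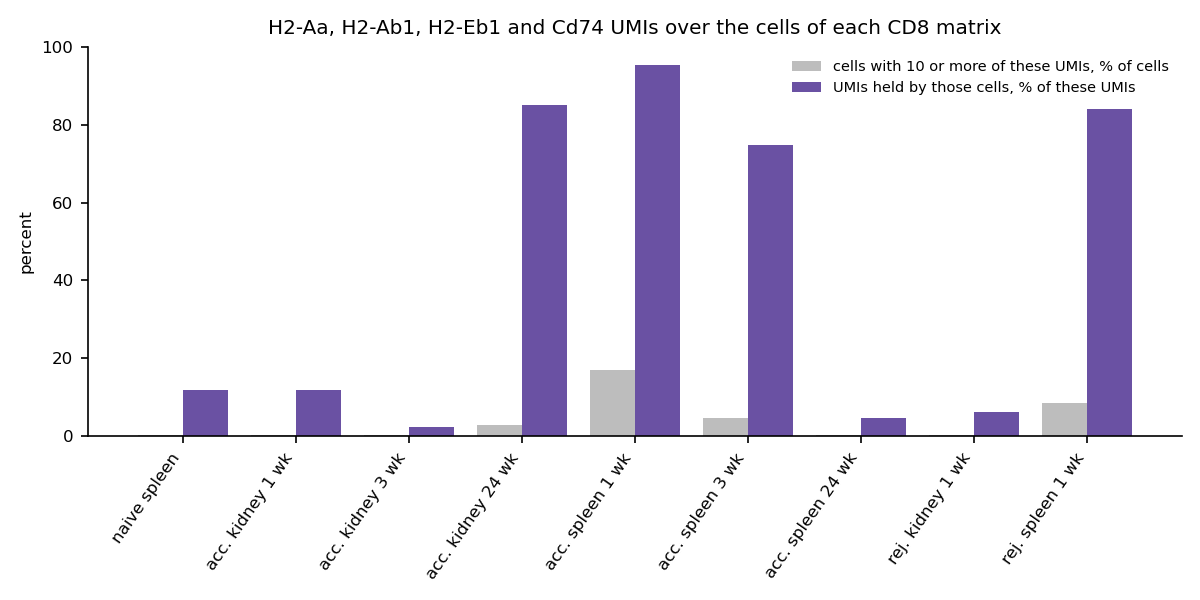
For each CD8+ matrix, the percentage of cells with 10 or more UMIs of H2-Aa, H2-Ab1, H2-Eb1 and Cd74 together, and the percentage of all UMIs of these genes that those cells held. In accepted spleen at 1 week 16.9% of cells held 95.2% of the UMIs, and in accepted kidney at 3 weeks 0.108% of cells held 2.16%.

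The genes that travelled with class II also differed between the tissues. Cells with a UMI of a B cell gene were 24.3% of cells in spleen at 1 week and held 95.6% of the UMIs of these 4 genes, and they were 22.6% with 80.6% in spleen at 3 weeks. In kidney they were 2.53% of cells at 1 week, with 6.95% of the UMIs. Cells with a macrophage gene UMI were 21.8% of kidney cells at 1 week and held 25.5% of the UMIs, a share close to their number, and 18.8% with 25.4% at 3 weeks. Per UMI of Cd74 the spleen libraries held 0.306 to 0.325 UMIs of Cd79a at 1 week and 0.273 to 0.292 at 3 weeks, beside 0.284 to 0.299 in the naive B cell class. Cells entered this class, and the C1qa class below, by at least 2 UMIs of Cd79a or C1qa. The class rule therefore bears on these reference ratios. The kidney libraries held 0.00591 to 0.0277 of Cd79a at 1 week, and 0.136 to 0.199 of C1qa, beside 0.182 to 0.218 in the C1qa class of the rejecting kidney. The CD8+ libraries of rejecting kidney held less C1qa per Cd74, 0.064 to 0.095. H2-Ab1 per H2-Aa was 0.768 to 0.871 in spleen at 1 week and 0.693 to 0.870 at 3 weeks, beside 0.751 to 0.822 in the naive B cell class. It was 1.02 to 1.35 and 0.998 to 1.26 in kidney at these times, beside 1.05 to 1.29 in the C1qa class of the rejecting kidney. Rejecting recipients were DBA/2J, a strain other than the accepting recipients but that of the accepted grafts' donors. The naive C1qa class held 0.759 to 0.962, rejecting spleen 0.440 to 0.567, and naive CD8+ libraries, with few UMIs, 0.864 to 1.37.

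The difference between graft and spleen was tested at each time as a comparison of kidney with spleen libraries. At 1 week all 7 genes were lower in kidney (24.1% of 11707 genes were, median 0.00), from -1.26 ± 0.31 for H2-DMb1 (adjusted p = 0.00615) to -3.99 ± 0.27 for Cd74 (adjusted p = 9.4e-07, edgeR, 15.8-fold) and -4.02 ± 0.26 for Ciita. Cd79a measured 204 to 420 CPM in these spleen libraries and 0.28 to 1.94 CPM in the kidney ones. Of 13 pathway genes 10 were lower and none higher. At 3 weeks 6 genes were lower in kidney (20.2% of 10944 genes were, median 0.22), Cd74 by -1.15 ± 0.23 and Ciita by -2.76 ± 0.24, and H2-DMb1 did not pass (-0.10 ± 0.29, adjusted p = 0.775). Of the pathway genes 6 were lower and 2 higher. In libraries labelled 24-week the signs were opposite: 4 of 6 tested were higher in kidney (16.4% of 10381 genes were, median -0.17), H2-Aa by 1.15 ± 0.36, H2-Ab1 by 0.75 ± 0.30 (adjusted p = 0.0463), Cd74 by 1.38 ± 0.28 and H2-DMa by 1.18 ± 0.13. Without the second library labelled kidney, or the first labelled spleen, 2 of the 6 passed.

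In cells without a UMI of the B cell, macrophage or dendritic cell genes most of this difference was gone or turned. At 1 week Cd74 fell to 63.0, 83.4 and 43.9 CPM in spleen, while kidney kept 64.7, 42.9 and 69.9 CPM, and the libraries of both tissues overlapped. There 1 member was higher in kidney (28.3% of genes were), H2-DMb1 by 1.40, and 1 was lower (18.6% of genes were), H2-DMa at -0.74. Cd74 differed by -0.09 (adjusted p = 0.764, edgeR) and H2-Aa by 0.20. At 3 weeks 5 members were higher in kidney (47.6% of genes were, median 0.24), H2-Aa by 0.82, H2-Ab1 by 0.93, H2-Eb1 by 1.01, Cd74 by 0.69 and H2-DMb1 by 0.99, and H2-DMa was lower at -0.80 (18.3% of genes were). At 24 weeks as labelled H2-DMa was higher in kidney at 0.81 (15.5% of genes were), and 4 members were lower (37.8% of genes were), from -1.37 for Cd74 to -2.07 for H2-Eb1. Whether such cells were shallower, and whether RNA from outside the cells entered them, was not tested.

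**Figure D4:**
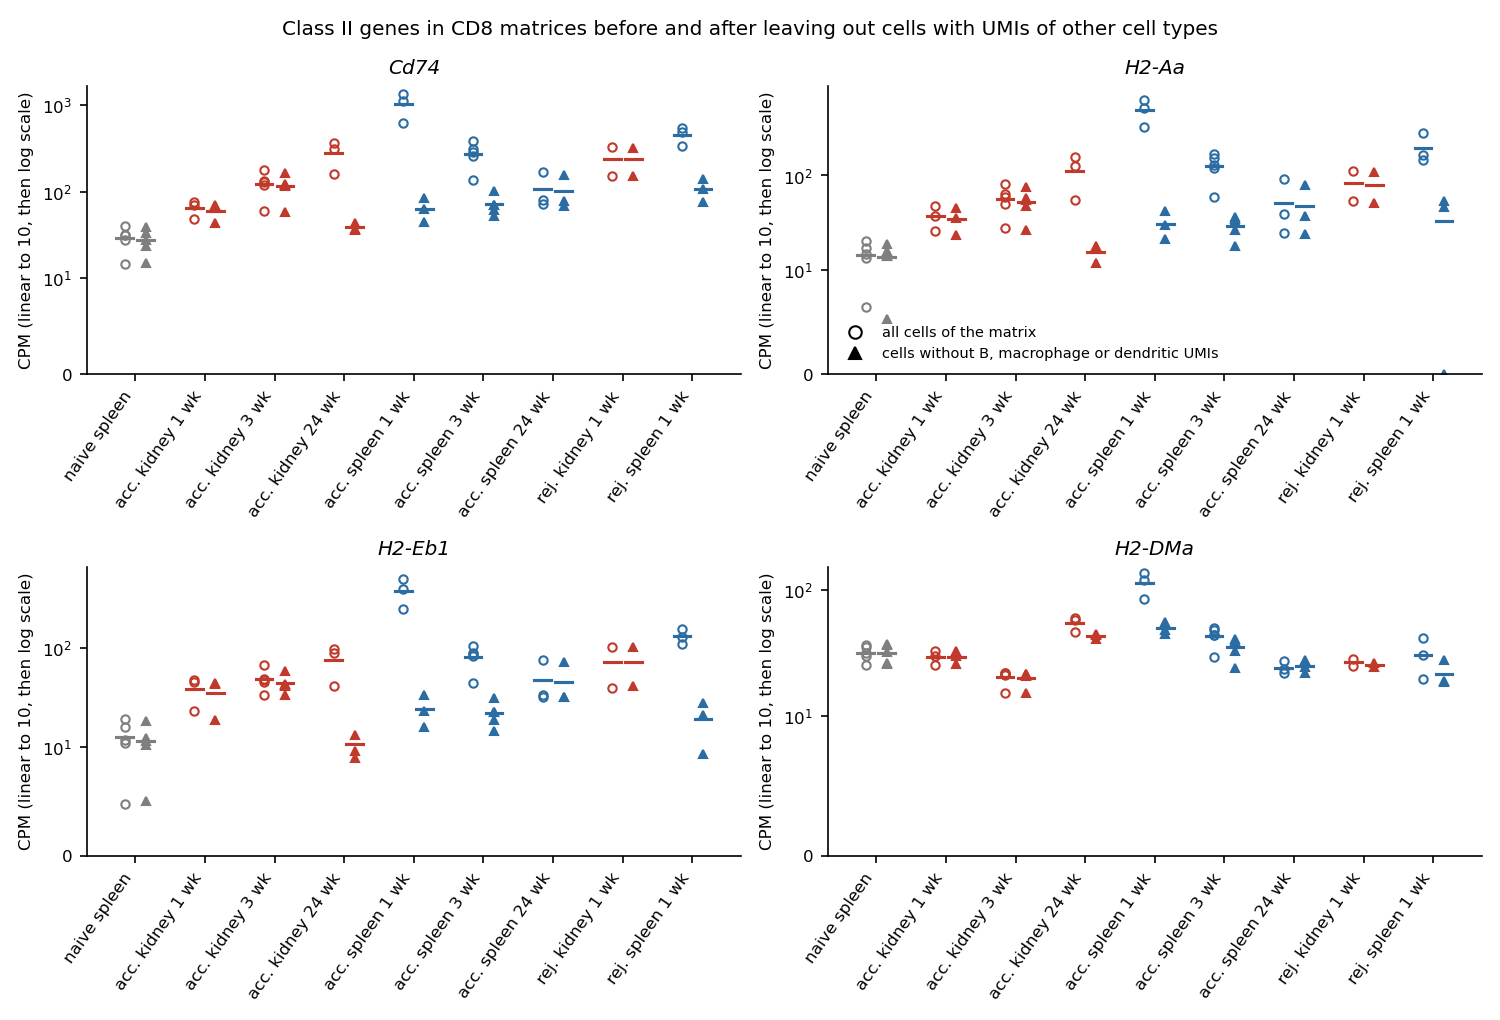
CPM of Cd74, H2-Aa, H2-Eb1 and H2-DMa in each CD8+ library, over all cells (circles) and over cells without a UMI of a B cell, macrophage or dendritic cell gene (triangles), on an axis linear to 10 CPM and then log. Cd74 dropped from 627 to 1324 CPM to 43.9 to 83.4 CPM in spleen at 1 week and stayed at 42.9 to 69.9 CPM in kidney at 1 week.

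**Figure D5:**
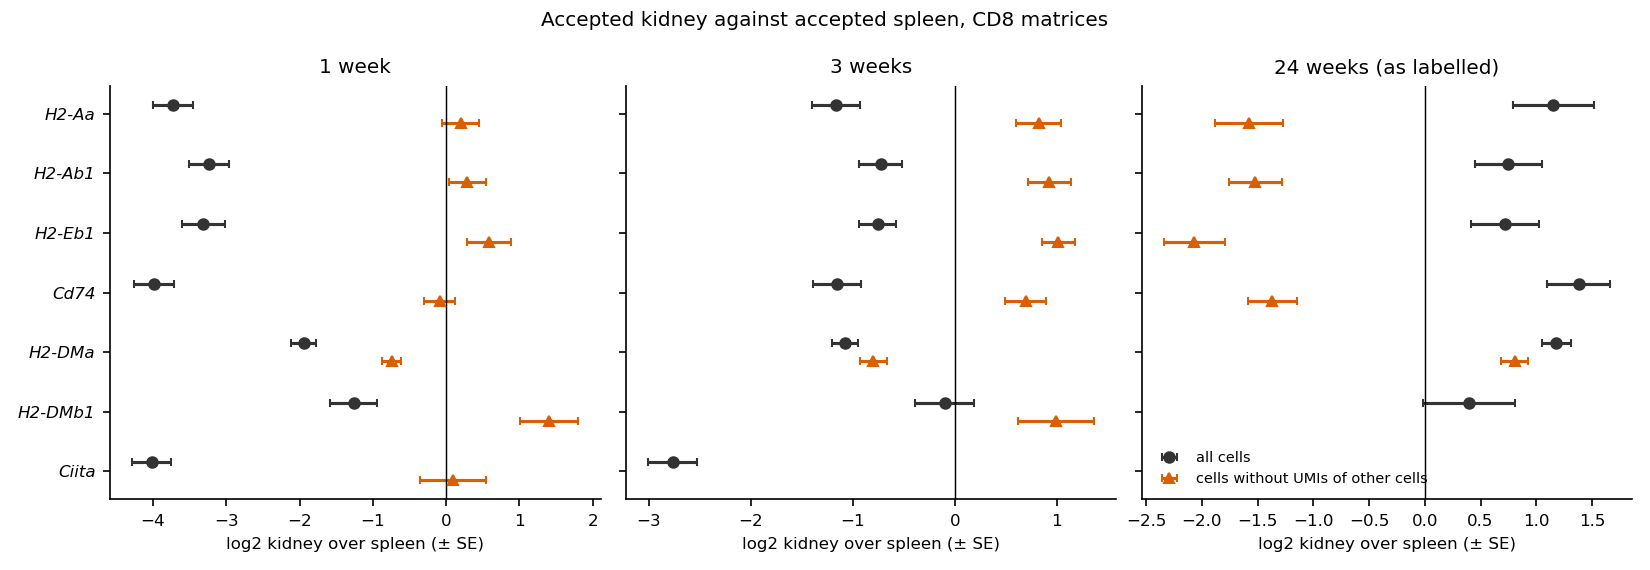
Log2 difference of accepted kidney minus accepted spleen (± SE) for each member in the CD8+ matrices at 1, 3 and 24 weeks as labelled, over all cells (black) and over cells without UMIs of other cells (orange). Cd74 moved from -3.99 to -0.09 at 1 week and from -1.15 to 0.69 at 3 weeks.

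From 1 to 3 weeks the class II genes fell in spleen, while in kidney Cd74 and H2-Aa rose by plain totals and H2-DMa fell. All 7 genes fell in spleen (21.1% of 10416 genes did, median 0.15), from -0.89 ± 0.28 for H2-DMb1 to -2.23 ± 0.21 for H2-Eb1, with Cd74 at -1.90 ± 0.24 (adjusted p = 6.41e-06, edgeR). Of the 13 pathway genes 10 fell and none rose. All 4 tested genes of B cells, macrophages or dendritic cells fell too, and cells with a Cd79a UMI were 18.7% at 1 week and 10.4% at 3 weeks. The H2-DMb1 call was lost in 2 of 8 fits that left out a library. In cells without UMIs of other cells 5 members were tested and 1 fell, H2-DMa at -0.51 (18.2% of genes did), while Cd74 differed by 0.18 (adjusted p = 0.407). In kidney 2 genes rose (53.5% of 11693 genes did, median 0.41), Cd74 by 0.93 ± 0.25 (adjusted p = 0.00311) and H2-Aa by 0.59 ± 0.26 (adjusted p = 0.0491), and 1 fell, H2-DMa at -0.53 ± 0.12 (adjusted p = 0.0014, 21.5% of genes fell). With TMM factors, which set the median gene near no change, 4112 genes rose and 4165 fell in place of 6251 and 2516, and Cd74 (0.56, adjusted p = 0.062) and H2-Aa (0.21, adjusted p = 0.485) did not pass. The difference between the tissues in this change was tested as an interaction. All 7 members changed more upward in kidney than in spleen (29.2% of 12319 genes did, median 0.24), by 2.56 ± 0.41 for H2-Aa, 2.83 ± 0.41 for Cd74, 0.87 ± 0.22 for H2-DMa and 1.16 ± 0.46 for H2-DMb1 (adjusted p = 0.0487). The H2-DMb1 call was lost in 11 of 16 fits that left out a library. In cells without UMIs of other cells none of the 7 passed by edgeR (22.7% of genes were higher), and 1, Cd74, had an unadjusted p under 0.05.

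From 3 weeks to the libraries labelled 24-week, 5 members rose in kidney (16.6% of 11617 genes did, median -0.44), H2-DMa most at 1.42 ± 0.12 (adjusted p = 4.83e-08, edgeR) and Cd74 by 1.16 ± 0.26. Without 24-week kidney library 2 these were the 2 that passed. In cells without UMIs of other cells H2-DMa still rose, by 1.11 ± 0.11 (15.1% of genes did), while the 6 others fell (58.2% of genes did, median -0.48), Cd74 at -1.58 ± 0.23. In spleen 6 members fell (30.8% of 10415 genes did, median -0.03), Ciita most at -2.91 ± 0.35, and in cells without UMIs of other cells H2-Aa (0.64), H2-Ab1 (0.80), H2-Eb1 (1.02) and Cd74 (0.48, adjusted p = 0.0446) rose (30.1% of genes did) and H2-DMa fell at -0.50 (29.1% of genes did). The interaction passed for 6 members (22.0% of 11090 genes higher, median -0.39), from 1.47 ± 0.40 for H2-Eb1 to 4.24 ± 0.60 for Ciita. It passed the other way in cells without UMIs of other cells, for 5 of 6 members tested (48.6% of genes were lower, median -0.43), H2-Eb1 at -3.08 ± 0.35 (adjusted p = 2.28e-08, edgeR) and Cd74 at -2.06 ± 0.36 among them, and H2-DMa stayed higher at 1.60 ± 0.20 (20.4% of genes were). Cd79a measured 29.4 to 94.4 CPM in the libraries labelled 24-week kidney and 6.96 to 17.0 CPM in those labelled 24-week spleen. The kidney RNA of these libraries ran opposite to their labels, so time and tissue cannot be told apart here.

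The rejecting model was set beside the accepting one at 1 week. In kidney 4 members were higher in rejecting grafts (48.9% of 12533 genes were, median 0.70), H2-Aa by 1.15 ± 0.34, H2-Ab1 by 1.15 ± 0.30, Cd74 by 1.90 ± 0.32 (adjusted p = 0.000969, edgeR) and Ciita by 1.97 ± 0.39, while H2-DMa differed by -0.15 ± 0.20. With TMM factors 3443 genes were higher and 3222 lower in place of 6127 and 1313, Cd74 and Ciita still passed, H2-Aa and H2-Ab1 did not, and H2-DMa passed as lower (-0.83). Without rejecting library 2 the 2 that passed were also Cd74 and Ciita, in a fit of 1 rejecting library against 3 whose spread comes from the accepted ones alone. Both rejecting libraries lay above all 3 accepted ones for Cd74 and Ciita, and the share of all genes that did so is not given here. C1qa measured 31.1 and 9.73 CPM and Lyz2 104 and 116 CPM in the rejecting libraries, against 6.52 to 14.7 CPM and 23.6 to 64.1 CPM in the accepted ones. The same 4 of 7 members were higher in cells without UMIs of other cells, Cd74 by 1.99, where 46.0% of all genes were (median 0.67). In spleen 5 members were lower in the rejecting model (12.2% of 10573 genes were, median 0.38), from -1.13 ± 0.25 for Cd74 to -1.89 ± 0.31 for H2-Ab1, and H2-DMb1 (0.18) and Ciita (0.02) did not pass. In cells without UMIs of other cells Cd74 was higher there, by 0.88 (35.4% of genes were), and H2-DMa lower, at -1.08 (11.9% of genes were), with a median gene of 0.39. Which cells entered the spleen matrices differed too. A CD8 UMI was held by 100% of rejecting and 44.2% of accepted 1-week spleen cells, and a Cd79a UMI by 9.50% and 18.7%. Strain, the match of reads to the B6 reference and this difference in cells go with rejection and cannot be told apart from it.

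H2-DMa stood apart from the other members in the cells called CD8+ T cells. It measured 29.6, 35.1, 31.4, 36.5 and 25.4 CPM in naive spleen. Its range overlapped that of Cd74 there and the 25.3 to 31.1 CPM of the naive Cd3e class, which shares 1387 cells with this matrix. In accepted kidney it measured 32.7, 25.2 and 29.7 CPM at 1 week and 15.1, 21.9, 20.9, 21.5 and 21.9 CPM at 3 weeks, without overlap, and in rejecting kidney 28.2 and 24.7 CPM. In accepted spleen it measured 120.2, 134 and 84.0 CPM at 1 week and 29.3 to 49.4 CPM at 3 weeks. Cells that held none of the other 6 members were 33.8% to 74.2% of cells by matrix. There H2-DMa measured 26.1 to 37.8 CPM in naive spleen, 25.8 to 30.6 CPM in kidney and 44.4 to 56.1 CPM in spleen at 1 week, 15.7 to 22.6 CPM in kidney and 24.7 to 44.6 CPM in spleen at 3 weeks, and 41.8 to 45.1 CPM in libraries labelled 24-week kidney against 20.2 to 25.3 CPM in those labelled 24-week spleen, the opposite order to 1 and 3 weeks. In the rejecting model it measured 26.3 and 30.7 CPM in kidney and 8.96 to 22.9 CPM in spleen. The spleen values rest on 21 H2-DMa UMIs in all, over 494 such cells. Among accepted matrices the means of these cells again ran from 1-week spleen (50.4 CPM) down to 3-week kidney (19.6 CPM), with narrower gaps than over all cells. With cells thinned to 1000 UMIs, a H2-DMa UMI was seen in 3.44% of naive, 3.10% of 1-week kidney and 2.09% of 3-week kidney cells of these matrices. In 1-week spleen it was seen in 8.18% of cells, in a matrix where 44.2% of cells held a CD8 UMI and 18.7% a Cd79a UMI. Whether reads of the overlapping genes entered the H2-DMa counts was not tested.

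Across the 32 CD8+ libraries the members rose and fell together, as a description: H2-Aa and Cd74 correlated at r = 0.989 (log2 of CPM + 1), whereas H2-DMa correlated with the others at 0.377 to 0.660. Libraries share cell makeup and depth by matrix, so these points are not independent. Over the same libraries the genes whose level was most like the mean of the 6 members other than Ciita, out of 5458 genes that averaged 20 CPM or more, were Mef2c (r = 0.844), Ebf1 (0.812), Ifi30 (0.755), Ms4a1 (0.754) and Cd79a (0.751). Ebf1, Ms4a1 and Cd79a are genes of B cells. Over the 29 sums of class and library in naive spleen they were Pkib (0.940), Kynu (0.931), Bmp2k (0.921), Fgd2 (0.920) and Plekho1 (0.919), out of 6124 genes.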

How the data were processed

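Viable CD45+ cells were sorted and libraries made with a Chromium 3′ kit. The submitters' notes name Cell Ranger and mm10. The deposited matrices hold counts of UMIs per gene and cell as the authors left them after their own selection of cells, on mitochondrial content and on the UMIs and genes found per cell, whose thresholds and versions are not given in the sources used here. In this work UMIs were summed per library, or per class and library with at least 10 cells, using Python 3.11.15, pandas 2.3.3 and scipy 1.17.1. Sums were compared with edgeR 4.0.16 (R 4.3.3): quasi-likelihood test, plain library totals, filterByExpr, Benjamini-Hochberg adjustment, threshold 0.05. The fits were tested on simulated counts. TMM factors, DESeq2 1.42.0, no filter, other class rules, cells with a CD8 UMI, cells without UMIs of other cells and leaving out each library were the alternatives. Members, pathway and marker lists and the rule for named genes (the 7 members, the listed genes and the 5 genes most like them) were chosen with earlier results of these data known. Doublets were not removed. Shares were thinned to 1000 UMIs per cell. Integrated matrices and the all-cell matrices of accepted grafts were not used here.

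The scale matters in these data. Plain totals and TMM factors placed the median gene differently, and in 18 of 24 comparisons the share of called genes that were higher moved by over 10 percentage points (for rejecting against accepted kidney from 82.4% to 51.7%). Between CD8+ libraries at most 21 barcodes (1.79%) were shared.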

Additional observations from a re-analysis of the deposited data

Results flagged for a closer look

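In 63 groups of 4 or 5 libraries, 6 held a library far from the rest, and chance flags about 1 in 20 such groups. Naive spleen library 5 stood high in the C1qa class, with 3921 CPM of H2-Aa (others 935 to 1699), 3361 CPM of H2-Eb1 (665 to 1308) and 296 CPM of Ciita (34.7 to 95.7). Naive spleen library 1 stood low, with 9729.7 CPM of Cd74 in the Flt3 class (others 12619 to 12779.7) and 1160.5 CPM of H2-Ab1 in the Siglech class (2079 to 2432). Accepted kidney library 1 at 3 weeks held 15.1 CPM of H2-DMa in CD8+ cells (others 20.9 to 21.9).

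The change over time differed between kidney and spleen by a tested interaction (edgeR) in 13 cases over both steps. From 1 to 3 weeks the log2 difference of the changes was 2.56 for H2-Aa, 2.51 for H2-Ab1, 2.56 for H2-Eb1, 2.83 for Cd74, 0.87 for H2-DMa, 1.16 for H2-DMb1 and 1.25 for Ciita (29.2% of 12319 genes were higher). H2-DMb1 lost its call in 11 of 16 fits that left out a library. From 3 weeks to the libraries labelled 24-week the difference of the changes was 2.32 for H2-Aa, 1.48 for H2-Ab1, 1.47 for H2-Eb1, 2.53 for Cd74, 2.25 for H2-DMa and 4.24 for Ciita (22.0% of 11090 genes were higher). In cells without UMIs of other cells none of the first 7 passed (22.7% of genes were higher), and 1, Cd74, had an unadjusted p under 0.05. There the second step turned and passed as lower for H2-Aa (-2.40), H2-Ab1 (-2.45), H2-Eb1 (-3.08), Cd74 (-2.06) and H2-DMb1 (-1.66), where 48.6% of genes were lower. H2-DMa stayed higher (1.60, 20.4% of genes were). As kidney RNA ran opposite to the labels in the libraries labelled 24-week, time and tissue cannot be told apart in the second step.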

How the results depend on the processing

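Counts below are of members that passed in the direction reported, and a member turned when its fitted log2 difference changed sign. Shares of all genes are not given for fits without a library, with other class rules or with all matrices together. There a loss particular to the members cannot be told from a general one. Removing cells with UMIs of other cells changed most of the CD8+ comparisons. It left 1 member in kidney at 24 against 3 weeks (H2-DMa), where H2-Aa (-1.77), H2-Ab1 (-1.65), H2-Eb1 (-2.06), Cd74 (-1.58) and Ciita (-1.68) turned. It left 1 in spleen at 3 against 1 week, where Cd74 turned (0.18), and 1 at 24 against 3 weeks, where H2-Aa (0.64), H2-Ab1 (0.80), H2-Eb1 (1.02) and Cd74 (0.48) turned. It left 1 in rejecting against accepted spleen, where H2-Aa (0.57), H2-Ab1 (0.27) and Cd74 (0.88) turned. It left 1 in kidney against spleen at 1 week, where H2-Aa (0.20), H2-Ab1 (0.29), H2-Eb1 (0.58), H2-DMb1 (1.40) and Ciita (0.093) turned, 1 at 3 weeks, where H2-Aa (0.82), H2-Ab1 (0.93), H2-Eb1 (1.01), Cd74 (0.69) and H2-DMb1 (0.99) turned, and 1 at 24 weeks as labelled, where H2-Aa (-1.58), H2-Ab1 (-1.52), H2-Eb1 (-2.07) and Cd74 (-1.37) turned. The interaction of 3 and 1 weeks kept 0, with H2-DMa (-0.055), H2-DMb1 (-0.40) and Ciita (-0.29) turned, and that of 24 and 3 weeks kept 1, with H2-Aa (-2.40), H2-Ab1 (-2.45), H2-Eb1 (-3.08), Cd74 (-2.06) and H2-DMb1 (-1.66) turned. Fewer cells entered these fits. Of the turned values, H2-Ab1 in rejecting against accepted spleen (adjusted p = 0.594, edgeR, means 30.9 and 33.5 CPM) and Ciita in kidney against spleen at 1 week (adjusted p = 0.883, means 1.46 and 1.47 CPM) turned in the fit and not in the group means.

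TMM factors and DESeq2, in this order, gave 0 and 0 members in kidney at 3 against 1 week (1 and 0 at an unadjusted p under 0.05), where H2-Eb1 (-0.045 and -0.042), H2-DMb1 (-0.11 and -0.091) and Ciita (-0.19 and -0.19) turned. They gave 2 and 2 in rejecting against accepted kidney and 0 and 0 in C1qa against Ly6c2 of rejecting kidney. They turned H2-DMb1 in kidney at 24 against 3 weeks (0.11 and 0.094) and Ciita in rejecting against accepted spleen (-0.39 and -0.49). A fit of all 9 matrices gave 1 in kidney at 3 against 1 week. A second marker gave 2 in Flt3 against Cd79a and 3 in Siglech against Flt3, and a class rule of 1 UMI gave 1 in C1qa against Ly6c2 of rejecting kidney. The share of naive Cd3e cells with a Cd74 UMI was 2.41% at 500 UMIs and 12.8% without thinning. The cause was not tested.

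Leaving out a library in turn gave 3 to 6 members in C1qa against Cd79a (3 without naive spleen replicate 1) and 5 to 7 in Flt3 against Cd79a. It gave 1 to 3 in kidney at 3 against 1 week (1 without 3-week kidney replicate 2, 3, 4 or 5 or 1-week kidney replicate 1 or 2), 2 to 6 at 24 against 3 weeks (2 without 24-week kidney replicate 2), 2 to 5 in rejecting against accepted kidney (2 without rejecting kidney replicate 2, where the lone rejecting library is assumed to vary like the accepted ones), and 2 to 6 in kidney against spleen at 24 weeks as labelled (2 without kidney replicate 2 or spleen replicate 1). Ciita turned in rejecting against accepted spleen without rejecting spleen replicate 1 (range -0.80 to 0.44), and H2-DMb1 in kidney against spleen at 24 weeks without kidney replicate 2 (range -0.053 to 0.83). By less than 1 SE, the sign also changed for H2-DMb1 in kidney against spleen at 3 weeks (-0.33 to 0.071) and in rejecting against accepted spleen (-0.054 to 0.30) and for Ciita in kidney at 3 against 1 week (-0.022 to 0.33), none of which had passed. In the other comparisons the counts ranged over 5 to 7. The Flt3 and Cd79a classes of rejecting kidney could not be fitted, nor its class comparisons without a library, nor the naive Flt3 class at 3 UMIs.

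A fit with the number in the barcode tag as a replicate block was added after seeing the data for kidney against spleen and for the interactions. The labels do not say that a number is shared by 1 animal. Kidney and spleen libraries of the same number deviated from their group means with r = 0.0678 to 0.496 across genes, over 0.1 in 7 of 11 pairs, and 15 of 22 libraries correlated best with their own number. As the labels tie no number to an animal, the main fits did not take the numbers to pair the samples. With the replicate block 7, 6 and 6 members passed in kidney against spleen at 1, 3 and 24 weeks as labelled, and 7 and 6 in the interactions. Calls over all genes rose 1.04 to 1.11 times and no member lost its call. At 24 weeks H2-Eb1 was gained (0.72, adjusted p = 0.000826, edgeR). Ciita (1.45, adjusted p = 0.0103) also passed, but its counts were below the filter without the block, so it had no call to compare. The class fits already held the library as a covariate.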
